A study of Mus musculus with 4 samples.

Results

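The Mir297, Mir466, Mir467 and Mir669 families are mouse microRNA genes rich in simple repeats, most of which lie inside the gene Sfmbt2. They were followed in the insulin-making mouse beta cell line Beta-TC-6. Cells had received siRNA to NF90 (siNF90) or a negative control siRNA (siNTC). Each group had 2 Affymetrix Mouse Gene 2.1 ST arrays, and no other treatment or allele is given in the labels. The siRNA to NF90 was a pool of RNAi duplexes, carried in by a lipid reagent, and the medium held 25 mM glucose and 15% serum. Separate cultures for the arrays of a group are not mentioned in the labels, so each p-value measures the spread between arrays, which may be technical. NF90 itself is not analysed here, so siNF90 stands for the label and not for a measured loss of NF90.

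Members were selected on the symbols of probe sets. They were the genes of probe sets (groups of array probes read as 1 value) whose only gene symbol belongs to these families, with Sfmbt2 as host gene. This gave 24 microRNA genes and Sfmbt2, 25 of 22180 genes in the table, which holds 454 other microRNA genes. Where a gene had several probe sets, 1 was chosen by its mean over the 4 arrays, the highest being kept, which touched 4 of the 24 microRNA genes. By family the count was 2 for Mir297, 7 for Mir466, 4 for Mir467 and 11 for Mir669. RefSeq (GRCm38.p6) lists 81 genes of these families, 71 of them inside Sfmbt2 on chromosome 2. Of the 24 measured genes, 22 lie inside Sfmbt2, while Mir466i lies on chromosome 13 and Mir467f on chromosome 11. A further 16 of the 81 were named on probe sets with several symbols alone, and 41 on no probe set used here.

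MicroRNAs are cut from hairpins in longer transcripts, first in the nucleus by Drosha with Dgcr8 and then in the cytoplasm by Dicer. The mature strand then guides Argonaute proteins to messenger RNAs through its seed, and NF90, a double-stranded RNA-binding protein, is known to bind primary microRNA transcripts and to hinder their cutting by Drosha. The cluster in Sfmbt2 is found in rodents, is expressed from the paternal allele in the placenta, and is known from trophoblast and embryonic stem cells. Sfmbt2 itself encodes a Polycomb group protein that is needed for the growth of the placenta. The array values do not separate a mature microRNA from its hairpin or from the host transcript.

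The repeats are visible in the mature sequences, which RefSeq (GRCm38.p6) gave for 2 of the measured genes, both outside Sfmbt2. They are shown with 1 sequence of the Mir669 family, from a gene with no probe set of its own here, as examples of alternating bases. Capitals mark the seed, bases 2 to 8, and each sequence is written 5′ to 3′.
mmu-miR-466i-3p: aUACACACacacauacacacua
mmu-miR-467f: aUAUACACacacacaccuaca
mmu-miR-669n: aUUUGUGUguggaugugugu
The first is at chr13:17747552-17747573 on the plus strand, the second at chr11:69635419-69635439 on the minus strand and the third at chr3:115979905-115979924 on the plus strand. The miR-466i-3p sequence holds an unbroken alternation of A and C over 11 bases, and miR-467f over 12. In miR-669n the longest such alternation, of U and G, spans 8. Alternations of A with C or of U with G over 10 or more bases occur in 0.288% of the 1738 mature sequences in the table. They occur in 3 of the 8 sequences that it holds for these 4 families. None of these 8 lies inside Sfmbt2, so they do not describe the cluster there. The seeds UACACAC and UAUACAC each belong to 1 mature sequence of that table. Whether genes of these families inside Sfmbt2 share them was not checked, since their sequences are missing there.

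The promoter of Sfmbt2 is shown because the cluster lies inside this gene and RefSeq places this start ahead of all 71 genes. It is given over 300 bases at chr2:10370201-10370500 on the plus strand, with each CG in capitals (the motif CG, which reads the same on both strands).
Sfmbt2 promoter: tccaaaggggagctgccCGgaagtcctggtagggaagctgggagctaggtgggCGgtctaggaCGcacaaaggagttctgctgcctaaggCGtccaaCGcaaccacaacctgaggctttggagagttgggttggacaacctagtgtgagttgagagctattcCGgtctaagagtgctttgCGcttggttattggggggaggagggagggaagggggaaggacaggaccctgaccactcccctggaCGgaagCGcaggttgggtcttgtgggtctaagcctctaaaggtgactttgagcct
This window holds 9 CG, and 45.8% of 32851 promoter windows of the same length hold as many or more. A second start of Sfmbt2 in the table has 16 CG in its window, a number reached by 33% of windows.

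The values are log2 probe set values as deposited by the authors. Array medians were 1.65 and 1.66 in siNF90 and 1.68 and 1.66 in siNTC, and the median gene stood at 1.84. Background was not recorded with the values, so whether a gene with a low value was detected is unknown. A probe set's value also depends on its probes, so values of different genes are not compared as amounts of RNA. The beta cell markers Ins2 and Pdx1 stood at 7.95 and 6.93 in siNF90 and at 7.99 and 6.86 in siNTC. Of the 10 beta cell markers 5 were lower and 5 higher, and 2 transcription factors among them had an unadjusted p under 0.05. Nkx6-1 had 6.08 and 6.19 in siNF90, against 5.68 and 5.69 in siNTC (0.45 ± 0.12, limma adjusted p = 0.397). Mafa had 6.36 and 6.07 in siNF90, against 5.75 and 5.92 in siNTC (0.38 ± 0.15, adjusted p = 0.481). The part of these markers in the results below was not tested. Of 7 measured trophoblast markers and 6 pluripotency markers, 1 lay at or above the median gene. Summed on the linear scale, the trophoblast markers came to log2 values of 4.04 and 4.21 in siNF90 and of 4.07 and 4.11 in siNTC. The 9 markers of stroma, endothelium and blood came to 5.33 and 5.35 in siNF90 and to 4.84 and 4.89 in siNTC. Of these only Cd68, a lysosomal protein abundant in macrophages, reached the median gene, at 4.44 and 4.48 in siNF90 against 3.32 and 3.35 in siNTC (limma adjusted p = 0.342), and its part in the results was not tested. Ptprc and Adgre1, which define blood cells and macrophages, differed by -0.01 and -0.03, and the endothelial cadherin gene Cdh5 by -0.36 ± 0.14 (limma adjusted p = 0.46).

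Most of the repeat-cluster microRNA genes lay lower in siNF90, 18 of 24 with 6 higher, and the median log2 difference was -0.21. The median over all genes was 0.01, and 45.8% of all genes lay lower. For 10 of the 24 both siNF90 values were under both siNTC values, which held for 17.9% of all genes. For 1 of the 24 both were above, which held for 21.9% of all genes. No member passed limma's moderated test after Benjamini-Hochberg adjustment over all genes at 0.05, which called 0% of all genes. Among members the smallest adjusted p came to 0.357. Unadjusted, 9 members had p under 0.05, all lower, where 4.41% of all genes were lower and 5.87% higher at that p. A variance prior that follows the level called 0.455% of all genes and no member (smallest adjusted p = 0.117, Mir669m-1).

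The 454 other microRNA genes were split, with 214 lower, 230 higher and a median of 0.01. Among them 69 had both siNF90 values under both siNTC values and 66 had both above. The difference between the 2 sets of microRNA genes was not tested.

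**Figure D1:**
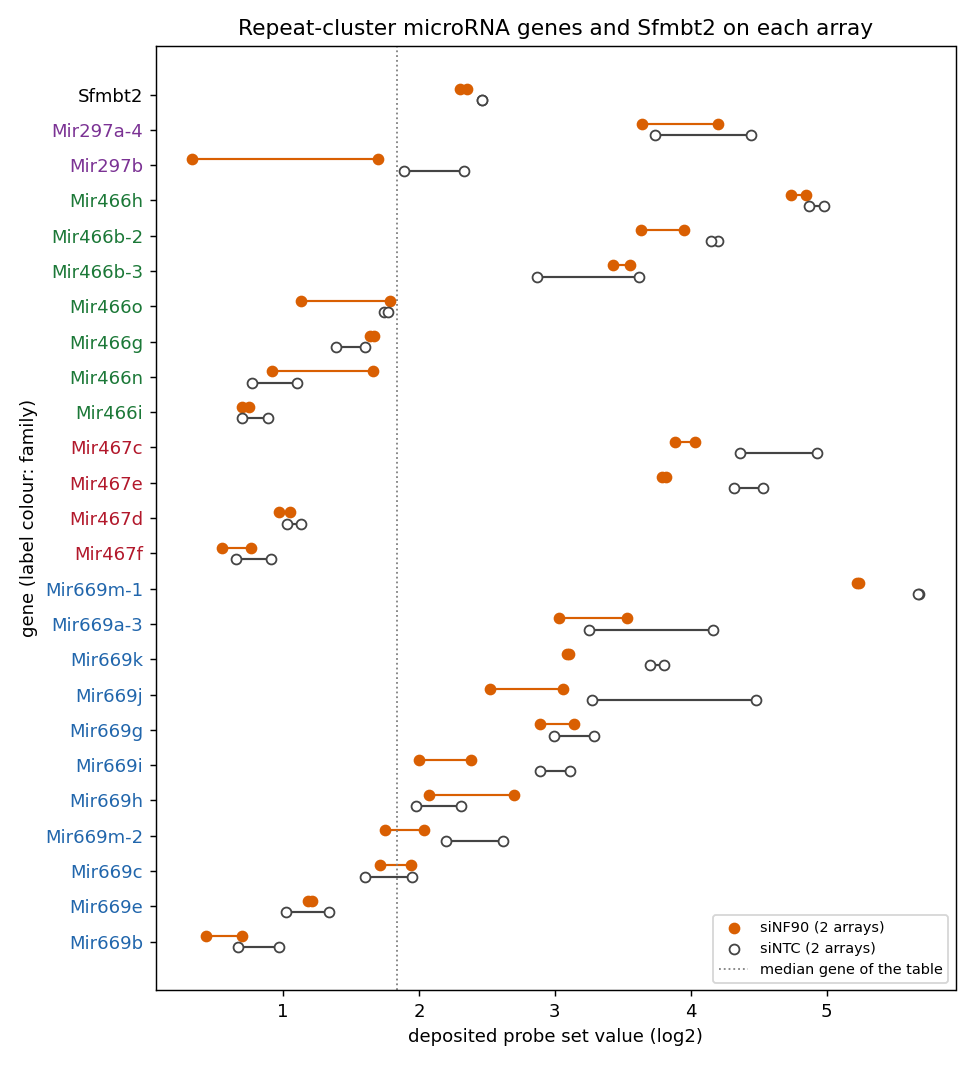
Deposited log2 values (horizontal axis) of Sfmbt2 and the 24 microRNA genes on each array, siNF90 as filled and siNTC as open circles, with a line joining the 2 arrays of a group and a dotted line at the median gene (1.84). In 10 microRNA genes, such as Mir669m-1, Mir669k and Mir467e, both siNF90 circles lie left of both siNTC circles, and in Mir466g both lie right.

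Sfmbt2, the host gene, stood at 2.30 and 2.35 on the siNF90 arrays and at 2.46 on both siNTC arrays (probe set 17366687). Both siNF90 values were the lower ones, with a difference of -0.14 ± 0.12 (log2, SE) that did not pass limma's test (adjusted p = 0.749). The 22 microRNA genes inside Sfmbt2 had a median difference of -0.28, with 16 lower and 6 higher. Whether the host differs less than its microRNA genes was not tested.

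In the Mir467 family all 4 genes lay lower in siNF90. Mir467e (probe set 17366886) had 3.82 and 3.79 on the siNF90 arrays, against 4.32 and 4.53 on the siNTC arrays. Mir467c (probe set 17366740) had 4.03 and 3.88 on the siNF90 arrays, against 4.93 and 4.36 on the siNTC arrays. In both genes the groups did not overlap, although the siNTC arrays of Mir467c lay further from each other than the groups did at their nearest. Mir467e was 1.54-fold lower (-0.62 ± 0.13, log2 and SE, limma adjusted p = 0.357) and Mir467c 1.61-fold lower (-0.69 ± 0.21, adjusted p = 0.413). Without the first siNTC array the Mir467c difference was -0.41. Mir467d, with 0.97 and 1.05 in siNF90 against 1.13 and 1.03 in siNTC, overlapped between groups under the median gene. Mir467f, the gene on chromosome 11 whose sequence is shown above, had 0.76 and 0.55 in siNF90 against 0.91 and 0.65 in siNTC, which also overlapped.

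The Mir669 family held the most genes, and 8 of its 11 lay lower, with a median of -0.42. Mir669m-1 (probe set 17366922) had 5.24 and 5.22 on the siNF90 arrays, against 5.68 and 5.67 on the siNTC arrays. The means were 5.23 ± 0.01 in siNF90 and 5.67 ± 0.01 in siNTC (SD, n = 2 each), so the arrays of a group nearly coincided, and limma's adjusted p for the difference of -0.45 ± 0.12 was 0.387. Mir669k (probe set 17366758) had 3.09 and 3.10 in siNF90, against 3.70 and 3.80 in siNTC, and was 1.57-fold lower (-0.66 ± 0.12, adjusted p = 0.357). Mir669i (probe set 17366718) had 2.00 and 2.38 in siNF90, against 2.89 and 3.11 in siNTC, and was 1.75-fold lower (-0.81 ± 0.17, adjusted p = 0.357). In these 3 genes the groups stood clear of each other.

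Other Mir669 genes were less even between arrays. Mir669j had 2.52 and 3.06 in siNF90, against 4.48 and 3.27 in siNTC, so that its 2.12-fold difference rested largely on the first siNTC array. The log2 difference of -1.08 ± 0.40 (adjusted p = 0.459) was -0.48 without that array and -1.69 without the second siNTC array. Mir669m-2 had 2.04 and 1.75 in siNF90, against 2.62 and 2.20 in siNTC, and did not overlap between groups (-0.52 ± 0.19, adjusted p = 0.455). Mir669a-3 had 3.03 and 3.53 in siNF90, against 3.25 and 4.16 in siNTC, and Mir669g had 2.89 and 3.14, against 2.99 and 3.29. Both overlapped between groups. Mir669h, the member of this family with the largest positive difference, had 2.70 and 2.07 in siNF90, against 2.31 and 1.98 in siNTC, which overlapped too (0.24 ± 0.24). The remaining Mir669b, Mir669c and Mir669e lay under the median gene, with differences of -0.26 to 0.05, and overlapped between groups.

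The Mir466 family was split, with 4 of 7 genes lower and a median of -0.07. Mir466h (probe set 17366932) had 4.85 and 4.74 in siNF90, against 4.87 and 4.98 in siNTC, a difference of -0.13 ± 0.12 with no overlap (adjusted p = 0.775). Mir466b-2 (probe set 17366856) had 3.95 and 3.63 in siNF90, against 4.20 and 4.15 in siNTC, and was 1.31-fold lower (-0.39 ± 0.15, adjusted p = 0.474). Without the second siNF90 array its difference was -0.23, and its 6 probe sets not used gave 0.25. Its near copy by name, Mir466b-3, had a positive difference, with 3.43 and 3.55 in siNF90 against 2.87 and 3.62 in siNTC, and overlapped (0.24 ± 0.25, adjusted p = 0.789). The first siNTC array sets that sign, since the difference without it was -0.13. Mir466g was the member with both siNF90 arrays above both siNTC arrays, at 1.64 and 1.67 in siNF90 against 1.60 and 1.39 in siNTC (0.16 ± 0.13, adjusted p = 0.733). Mir466o and Mir466n, at -0.29 and 0.35, overlapped, as did Mir466i on chromosome 13, at 0.70 and 0.75 in siNF90 against 0.89 and 0.70 in siNTC.

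Both Mir297 genes lay lower. Mir297b (probe set 17366916) had 1.70 and 0.33 on the siNF90 arrays, against 2.33 and 1.89 on the siNTC arrays. Its mean over the 4 arrays, 1.56, lay under the median gene (1.84). The groups did not overlap, but the second siNF90 array stood far under the first, and the log2 difference of -1.09 ± 0.43 (adjusted p = 0.480) was -0.41 without the second and -1.78 without the first. Mir297a-4 had 3.64 and 4.20 in siNF90, against 3.74 and 4.44 in siNTC, and overlapped (-0.17 ± 0.28, adjusted p = 0.886).

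By level, members at or above the median gene over the 4 arrays were set beside those under it, as a description with no test. Of 14 such members 12 lay lower and 9 did not overlap, with a median of -0.43. Of the 10 members under the median gene 6 lay lower and 1 did not overlap below, with a median of -0.07, where 14.2% of all genes under the median gene did not overlap below. Among all genes in the same range of values, 2.15 to 5.45, 18.8% had both siNF90 values under both siNTC values and the median difference was 0.03. In that range 6.78% of genes were lower at an unadjusted p under 0.05, as were 8 of the 14 members. Of the 123 other microRNA genes at or above the median gene, over a wider range of values, 17 (13.8%) were lower and 10 higher at that p. Among these 123, 24 (19.5%) did not overlap below and 19 (15.4%) did not overlap above. Genes of a family resemble each other in sequence, so their counts are not counts of independent genes. Across the 24 genes the difference ran against the level with r = -0.32 (Spearman's rho = -0.40), as a description of probe sets that share arrays and repeats, where all genes gave r = -0.02.

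**Figure D2:**
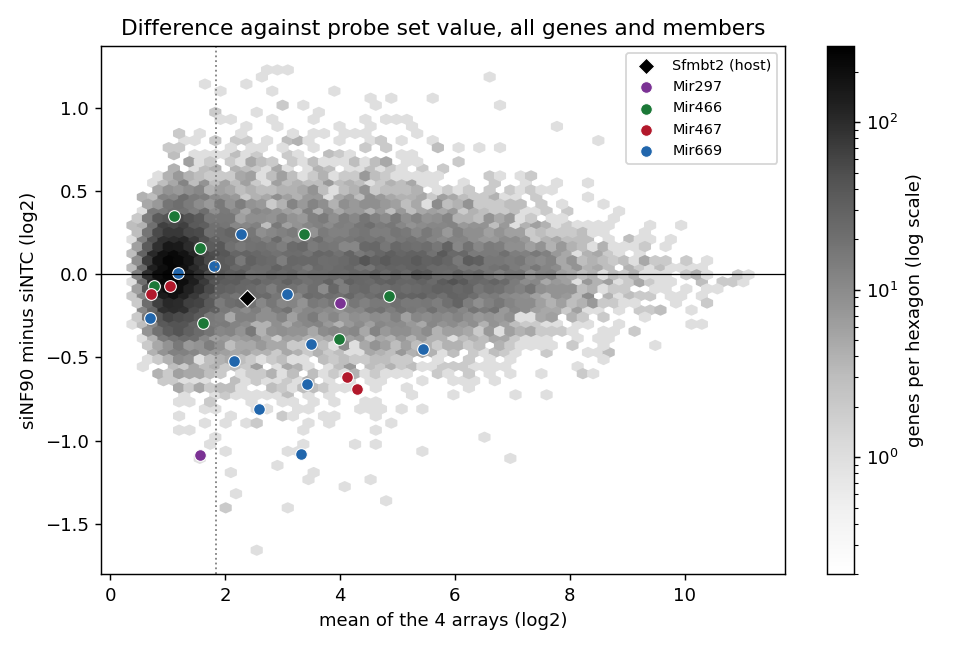
Difference between groups (siNF90 minus siNTC, log2, vertical) against the mean of the 4 arrays (log2, horizontal) for all 22180 genes, as grey hexagons shaded by number on a log scale, with the members coloured by family and Sfmbt2 as a diamond. The dotted line marks the median gene (1.84), and 12 of the 14 microRNA genes to its right lie below 0.

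Several probe sets of 1 gene gave a further reading of the same arrays. The 24 microRNA genes had 43 probe sets, but some of these carried the same values on all 4 arrays to both decimals. This left 33 distinct profiles, 25 of them lower in siNF90, where 45.8% of all genes lay lower. The share over all probe sets was not counted. Mir669k had 9 probe sets with 6 distinct profiles, all lower, from -0.96 to -0.30. Mir669g had 5 with 3 profiles, from -0.21 to -0.12. In 2 genes the probe sets went opposite ways. For Mir466b-2 the probe set used gave -0.39, while 6 others with 1 shared profile gave 0.25, at 3.79 and 3.78 in siNF90 against 3.17 and 3.90 in siNTC. For Mir669i the probe set used gave -0.81 and the other gave 0.21, at 0.62 and 1.18 in siNF90 against 0.78 and 0.60 in siNTC. The means over the 4 arrays that chose the probe set were 3.98 against 3.66 for Mir466b-2 and 2.59 against 0.80 for Mir669i. For Mir466b-2 both profiles had a siNF90 mean of 3.79, so the choice rested on the siNTC means, 4.18 against 3.54. That Mir466b-2 counts as lower, without overlap and under an unadjusted p of 0.05 follows from this choice.

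Probe sets with several symbols of 1 family were outside the rule and are given by number. There were 27, with 6 distinct profiles, 5 of which had both siNF90 values under both siNTC values. This held for 17.9% of all genes, and the share over all probe sets was not counted. The siNF90 means of these 5 ran from 0.77 to 1.75, under the median gene (1.84), and their siNTC means from 1.32 to 2.87. Probe set 17366754, with 3 Mir669 symbols and 1 of 12 probe sets that share its values, had 1.91 and 1.11 in siNF90, against 2.84 and 2.37 in siNTC. Probe set 17366810, also with 3 Mir669 symbols, had 1.56 and 0.90 in siNF90, against 2.82 and 2.91 in siNTC. These differences of -1.09 ± 0.33 and -1.64 ± 0.25 had limma adjusted p of 0.575 and 0.47 over all probe sets. The 3 profiles with Mir467 symbols lay at -0.55, -0.50 and -0.55.

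**Figure D3:**
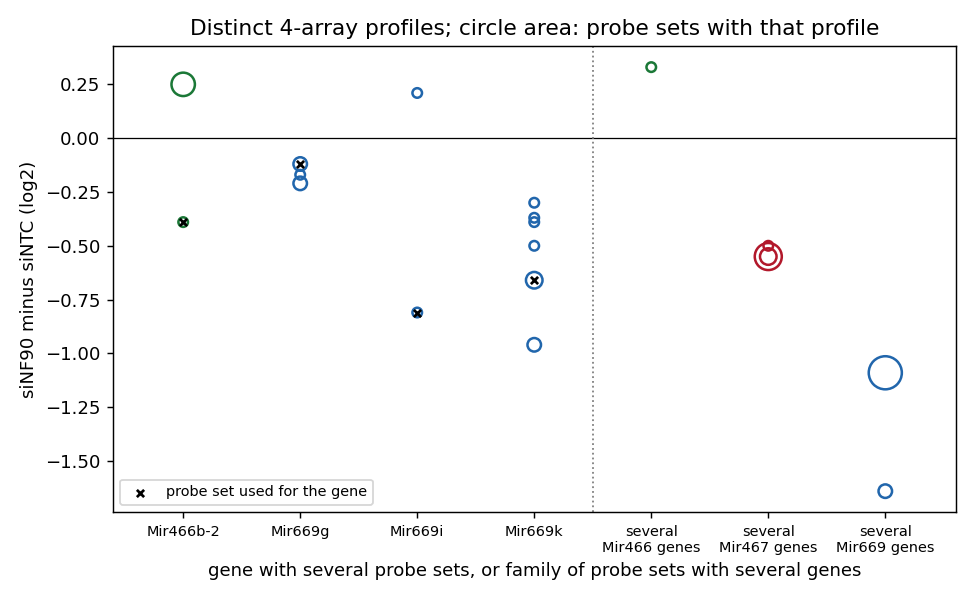
Difference between groups (siNF90 minus siNTC, log2, vertical) for each distinct 4-array profile, left of the dotted line for the 4 genes with several probe sets and right of it for probe sets with several symbols of 1 family. Circle area gives the number of probe sets with that profile and a cross marks the probe set used. All Mir669k and Mir669g profiles lie below 0, while Mir466b-2 and Mir669i have 1 profile on each side.

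Place in the cluster was taken from the order of the 71 genes inside Sfmbt2, counted from its 5′ end. A gene was placed by its symbol, and the places of the probe sets themselves were not determined. This includes Mir669i, put at place 70, whose 2 probe sets went opposite ways. By symbol the 22 measured genes lay in 2 stretches, 8 of them between places 4 and 21 and 14 between places 46 and 71. The 24 places from 22 to 45 held no symbol of a measured gene, which does not show that no probe set lies there. Over all genes 45.8% lay lower and 17.9% were lower without overlap. Of the 8 genes in the first stretch 7 lay lower, 3 of them without overlap, with a median of -0.36. Of the 14 in the second 9 lay lower, 7 without overlap, with a median of -0.15.

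**Figure D4:**
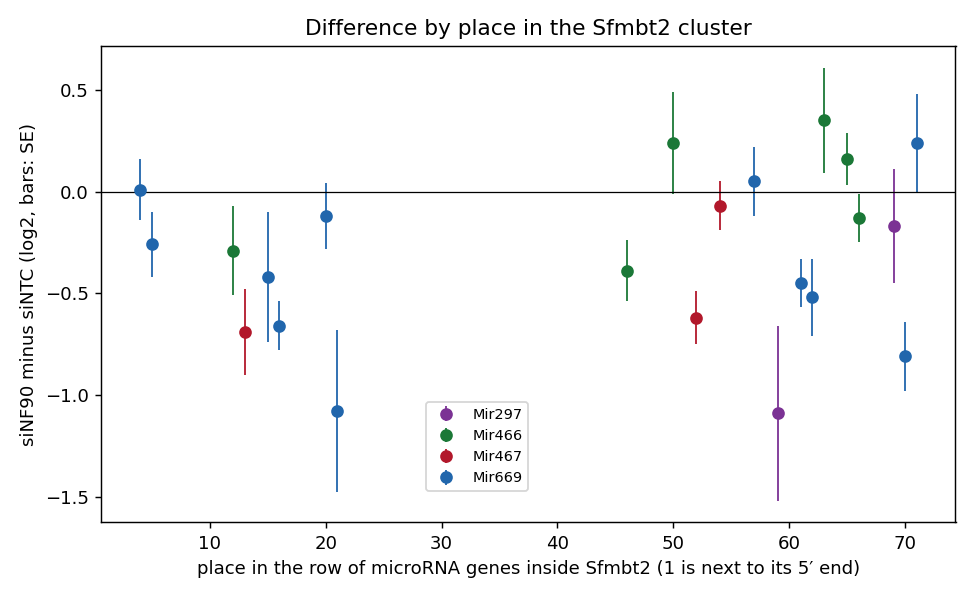
Difference between groups (siNF90 minus siNTC, log2, with SE bars) for the 22 microRNA genes inside Sfmbt2. Genes are ordered by the place of their symbol among its 71 microRNA genes of these families, place 1 being next to its 5′ end. Genes below 0 lie in both stretches, and 7 of 8 in the first and 9 of 14 in the second are lower.

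Protein-coding genes on either side of Sfmbt2 were split, with 4 of 10 lower, 6 higher and a median of 0.09. Prkcq, the next protein-coding gene downstream and a kinase of T cells, had 0.79 and 1.03 in siNF90, against 1.29 and 1.08 in siNTC, under the median gene. Itih5, the next upstream, differed by -0.16 ± 0.19. None of the 10 reached an unadjusted p of 0.05.

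Genes of microRNA processing and silencing were lower in 10 of 14, with a median of -0.10, 6 without overlap below and 3 above, where the shares of all genes were 17.9% and 21.9%. No adjusted p of limma was under 0.05. The helicase Ddx5, a cofactor of Drosha, had 9 and 8.86 in siNF90, against 9.24 and 9.28 in siNTC (-0.33 ± 0.12, adjusted p = 0.459). Tnrc6c, a silencing partner of Argonaute, had 5.77 and 5.67 in siNF90, against 5.23 and 5.44 in siNTC (0.39 ± 0.13, adjusted p = 0.44). Partners of Sfmbt2 in Polycomb and YY1 complexes had a median of -0.04 over 20 genes, 11 lower and 8 higher. The Polycomb gene Scmh1 was the one under an unadjusted p of 0.05, with 5.25 and 5.08 in siNF90 against 5.67 and 5.47 in siNTC (-0.41 ± 0.14, adjusted p = 0.439).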

How the data were processed

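The authors deposited 1 table of log2 values for 41345 probe sets on 4 arrays, made from total RNA (250 ng per array). The software was Transcriptome Analysis Console, as the submitters' processing notes name it, and its version and settings are not stated there. The log base was read from the range of the values. Platform annotation gave 1 symbol to 23521 probe sets, several to 1814 and none to 16010. The 22180 genes (1082 with several probe sets, highest mean used) were fitted with limma 3.58.1 in R 4.3.3 (lmFit and eBayes without a trend, no block, no filter), siNF90 minus siNTC, with two-sided p and Benjamini-Hochberg adjustment. The fit had 2 residual and 3.92 prior degrees of freedom. The smallest exact permutation p that 4 arrays allow is 0.33, so no such test was used. Values are given per array, and their number limits the precision.

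All 25 members matched RefSeq symbols (GRCm38.p6), which gave sequences, chromosomes and gene order. Members and lists were chosen with earlier results of these data known. Genes named were Sfmbt2 and, per family, the 3 highest and 1 lowest by mean and up to 2 per direction by difference. The choice by difference was among members whose higher group mean was at or above the median gene. Mir297b passed this on its siNTC mean alone (2.11, against 1.01 in siNF90), and was also named by level. List genes were named at an unadjusted p under 0.05, at most 4 a list. Others named were chosen after their values were seen. In simulated data for this comparison (22180 genes, 200 changed, 10 draws) all changed genes were at or above the median gene. The spread was drawn independently per gene, from a variance prior that follows the level. There the fit found 47.6% of the genes with a log2 change of 1 and 97% of those with a change of 2. Smaller changes and changed genes under the median gene were not simulated, so these shares do not cover such members. The alternatives were a replicate block, a trend or robust prior, arrays centred on their medians, quantile normalization, a filter on level, other uses of a gene's probe sets and leaving out each array.

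Median log2 differences of the marker lists were 0.02 for 10 beta cell genes, 0.01 for 6 other islet genes, 0.04 for 4 exocrine and duct genes, 0.07 for 7 trophoblast genes, -0.04 for 6 pluripotency genes and -0.03 for 9 genes of stroma, endothelium and blood.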

Additional observations from a re-analysis of the deposited data

Results flagged for a closer look

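Probe set 17366918, which carries 2 symbols of the Mir466 family and so lay outside the genes tested, was the one profile among 6 of this kind with both siNF90 arrays above both siNTC arrays. It had 3.45 and 3.26 in siNF90, against 3.07 and 2.98 in siNTC, a log2 difference of 0.33 ± 0.14 (SE). Over all probe sets limma gave an adjusted p of 0.641.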

How the results depend on the processing

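No member passed limma's test over all genes under any of 12 alternatives. Over all genes the count was 0 throughout, except for 101 genes with a trend in the prior. The median difference of the 24 microRNA genes was -0.43 with genes under the median level left out (14 left), and -0.15 with the probe set of lowest mean per gene, a setting added after seeing the data. With each array left out in turn it ran from -0.29 (without the first siNTC array) to -0.17, and the number lower ran from 16 to 19. Every probe set taken singly gave 30 lower of 43 and 18 without overlap, counts that hold repeated profiles. Over all genes 45.8% lay lower and 17.9% were lower without overlap, and the shares over all probe sets were not counted.

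The groups share only replicate numbers: same-numbered arrays deviated from their group means with r = -0.02 across genes, and the replicate block left 0 members called (smallest adjusted p = 0.591). Of the 18 genes named by rule, 11 kept their sign under every one of the 12 alternatives that covered them. The filter on level left out named genes under the median gene, such as Mir297b. A block, a trend or robust prior, the filter and every probe set taken singly left the differences of named genes unchanged. These settings could not turn a sign. The probe set of lowest mean was not in this count, and with it Mir669i gave 0.21. The mean of all probe sets turned Mir466b-2 to 0.16. Leaving out an array turned 6 genes, whose differences then ran -0.52 to 0.18 for Mir297a-4, -0.13 to 0.62 for Mir466b-3, -0.17 to 0.03 for Mir466i, -0.26 to 0.01 for Mir467f, -0.88 to 0.03 for Mir669a-3 and -0.07 to 0.56 for Mir669h. A reversal at 0.11 for Mir297a-4 came without the first siNF90 array. Leaving an array out leaves 1 array in a group, which is assumed to vary like the others, and the causes were not tested.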
